A study of Homo sapiens with 24 samples.

Results

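Midkine (MDK) and pleiotrophin (PTN) are the members of a small family of secreted, heparin-binding growth factors, and this account follows both genes with the receptors that bind them in diffuse midline glioma (DMG) cells treated with the PRMT5 inhibitor LLY-283. The 9 genes were taken by name: the ligands MDK and PTN, the receptors PTPRZ1, ALK and LRP1, and the syndecans SDC1, SDC2, SDC3 and SDC4, out of 58676 gene identifiers in the deposited count table. Each matched 1 identifier. HSJD-DIPG-007, an established DMG line grown as spheroids whose labels give the genotype H3F3A K27M, ACVR1 R206H and PIK3CA MIS, was sequenced in 24 libraries. Of these, 12 came from vehicle and 12 from LLY-283 at GI40, the dose that inhibits growth by 40%, and each treatment group held 3 libraries of day 0, 3 of day 5 and 2 of day 7, with a single one for days 1, 2, 3 and 10. All libraries share the cell line and its alleles. The sample labels describe a single dose, while the study's methods describe a second one with the medium change after 5 days. Libraries of a group are technical repeats, so p-values measure the spread between repeats of this 1 line and need not cover that between independent cultures.

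Midkine and pleiotrophin bind the sulphated sugar chains of cell-surface proteoglycans and are best known for promoting growth, survival and migration of neural and tumour cells. PTPRZ1 is a receptor-type protein tyrosine phosphatase of glial precursors that carries chondroitin sulphate chains, and binding of pleiotrophin inactivates its phosphatase activity. ALK is a receptor tyrosine kinase, LRP1 is a large endocytic receptor that takes up midkine among many ligands, and syndecans are transmembrane heparan sulphate proteoglycans that hold these factors at the cell surface.

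Promoter windows, running from 250 bases before to 50 bases after the annotated start, were taken for 7 of the 9 genes from RefSeq promoters on GRCh38.p14. The windows of PTN and PTPRZ1 are shown because this ligand and its receptor were the most abundant transcripts of the group and both were higher at day 5 of LLY-283, while their promoter sequences differ in composition. Both are written 5′ to 3′ on the strand of the gene, with matches to the motifs GGGCGG (GC box), CCAAT and TATAAA, searched on both strands, in capitals. PTN is on the minus strand at chr7:137343684-137343983 and PTPRZ1 on the plus strand at chr7:121872911-121873210.
PTN: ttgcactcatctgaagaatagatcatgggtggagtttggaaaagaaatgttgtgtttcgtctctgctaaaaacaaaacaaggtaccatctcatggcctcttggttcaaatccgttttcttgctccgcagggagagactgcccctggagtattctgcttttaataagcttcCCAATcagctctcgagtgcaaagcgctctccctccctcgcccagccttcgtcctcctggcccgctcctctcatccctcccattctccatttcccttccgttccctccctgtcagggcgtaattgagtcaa
PTPRZ1: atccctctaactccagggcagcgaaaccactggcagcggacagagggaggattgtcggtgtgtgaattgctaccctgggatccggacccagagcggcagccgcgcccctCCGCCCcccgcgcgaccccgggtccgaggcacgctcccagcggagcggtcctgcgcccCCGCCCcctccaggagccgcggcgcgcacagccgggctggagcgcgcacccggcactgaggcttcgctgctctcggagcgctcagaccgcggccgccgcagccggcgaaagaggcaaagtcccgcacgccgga
The PTN window held 50.3% G and C with 10 CpG pairs, and the PTPRZ1 window 73.3% with 38, beside medians of 58.7% and 14 over 35116 promoter windows. PTN had 1 CCAAT match and no GC box, whereas PTPRZ1 had 2 GC boxes and no CCAAT match. In all promoter windows, 45% held a GC box, 34.6% a CCAAT and 11.5% a TATAAA match. Of the other members that were higher at day 5, LRP1 had 1 GC box, SDC3 had 6 and SDC4 had 8. None of these windows held a CCAAT or TATAAA match. SDC1, which was not called at day 5, also had 1 GC box in each of its 2 windows and neither other match. ALK, with too few counts to be tested, had 5 GC boxes and 1 CCAAT match in 1 window. Its other window had 2 CCAAT matches and no GC box, and neither held TATAAA. A link between these motifs and the changes was not tested.

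The deposited values were estimated counts per gene from kallisto, and library totals ranged from 13835205 to 23190369. Levels are given as TMM-normalised CPM, counts relative to a library total that is scaled so that most genes do not change. A gene was called where the adjusted p of edgeR's quasi-likelihood test (Benjamini-Hochberg) was under 0.01. The labelled glial identity was checked against markers: OLIG1, OLIG2, PDGFRA and CSPG4 had medians between 124 and 1241 CPM, whereas the precursor markers SOX10 and GPR17 did not exceed 0.603 CPM in any library. The 2 libraries labelled day 7 repeat 2 stood apart. Of the 4304 genes called at day 5, 94.8% differed in the same direction between the day 7 libraries of repeat 1, and 19.6% between those of repeat 2. Day 7 values are therefore given by library, as labelled. Whether the labels of the 2 libraries of repeat 2 were exchanged was not tested, and the day 7, time course and shared-fit values rest on the labels as given. In bulk RNA, fewer cells of a type and less RNA per cell cannot be told apart.

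Of the 9 genes, 8 were measured in every library and passed the filter on low counts. That filter keeps genes with enough counts in at least as many libraries as the smallest group holds. ALK (chr2:29192774-29921586, minus strand) had 0 to 2 counts in a library and 15 in all, with 12 libraries at 0, and was not tested. Levels between genes were compared as CPM per kilobase of merged exon length, since a longer transcript collects more counts. By the median over 24 libraries the order was PTN, PTPRZ1, MDK, SDC3, SDC1, SDC4, LRP1, SDC2 and ALK, and it was identical when the longest transcript was used as the length.

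PTN (chr7:137227341-137343774, minus strand) was the most abundant member, at 627 ± 34.7 CPM per kilobase (SD, n = 3) in vehicle at day 0. PTPRZ1 (chr7:121873089-122062036, plus strand) followed at 265 ± 2.86, and MDK (chr11:46380756-46383837, plus strand) stood at 23.7 ± 1.99. Ligand and phosphatase receptor were thus both far above every other member. SDC1 had 13.8 ± 0.0895, SDC3 10.2 ± 0.13, SDC4 8.21 ± 0.72, LRP1 2.93 ± 0.115 and SDC2 0.829 ± 0.0845 CPM per kilobase, and no neighbours in this order overlapped between libraries. At day 5 of LLY-283 the order differed, with SDC3 at 21.7 ± 0.386 above MDK at 13.2 ± 0.68, and SDC4 (6.82 ± 0.337) and LRP1 (6.22 ± 0.298) overlapped. With the longest transcript as the length, the mean of LRP1 there was 8.69, above the 6.82 of SDC4. Parts of the exons of MDK, ALK and LRP1 lie over genes of the other strand (CHRM4, CLIP4, and LRP1-AS with STAT6). The library kit keeps strand, but whether the counting used it is not given in the sources used here, so reads from these overlaps may not be told apart.

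**Figure D1:**
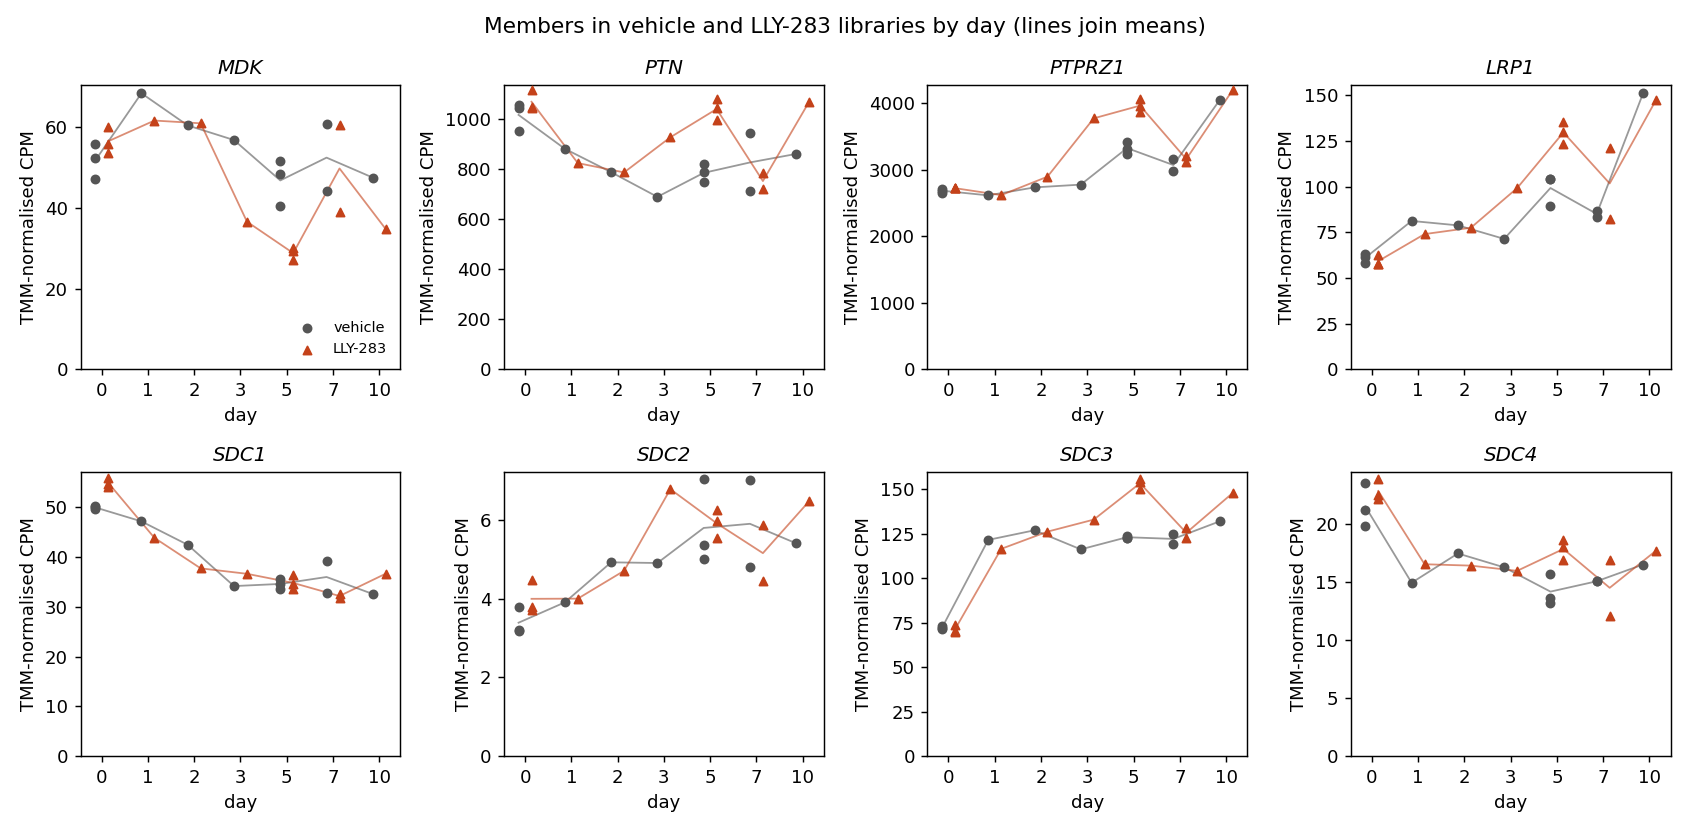
TMM-normalised CPM (vertical axes, from 0) of the 8 tested members in each library against the day of treatment (evenly spaced categories). Grey circles are vehicle and orange triangles LLY-283 libraries, and lines join the means. At day 5 the LLY-283 libraries of MDK lie below and those of PTN, PTPRZ1, LRP1, SDC3 and SDC4 above all vehicle libraries, while SDC1 and SDC2 overlap.

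The comparison of LLY-283 with vehicle at day 5 asks which transcripts differ after PRMT5 inhibition, and it has 3 libraries a group. MDK was lower, and PTN, PTPRZ1, LRP1, SDC3 and SDC4 were higher, in LLY-283 than in vehicle. In all, 6 of the 8 tested members were called, 5 higher and 1 lower, beside 26.1% of the 16491 genes tested (12% higher and 14.1% lower). Of all called genes 46.2% were higher, against 55.3% with library size alone as the scale and 38.6% in a shared fit of the 22 libraries of days 0 to 7, and each called member kept its direction in both. For 6 of 8 members the groups did not overlap, as for 46.3% of all genes. The median log2 fold change of the 8 members was 0.31 and that of all genes 0.021. In that shared fit, which includes the libraries of day 7, 3 members were called (PTN, PTPRZ1 and SDC3), with adjusted p of 0.0129 for MDK, 0.0206 for LRP1 and 0.0311 for SDC4.

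MDK had 48.3, 40.5 and 51.6 CPM in the vehicle libraries and 27.1, 29.2 and 30.0 CPM in the LLY-283 libraries of day 5. The highest LLY-283 library was below the lowest vehicle library. MDK had a log2 fold change of -0.67 (SE 0.0814, 95% interval -0.84 to -0.49), a fold of 0.629 (edgeR adjusted p = 1.66e-05). The study names this gene from its own analysis of these libraries, so its lower level here is not independent evidence of its direction. The study also measured MDK by RT-qPCR in independent repeats and lists it as downregulated there as well.

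PTN had 788, 748 and 819 CPM in vehicle and 1079, 996 and 1045 CPM in LLY-283. All 3 treated libraries were above the vehicle range, and PTN was 1.35-fold higher (log2 0.43, SE 0.0377, 95% interval 0.35 to 0.51, edgeR adjusted p = 6.88e-10). The ligands were also measured against each other. A library of vehicle at day 5 held 16.9 ± 1.4 PTN counts for each MDK count (SD, n = 3), and one of LLY-283 held 36.2 ± 3.09, with ranges of 15.9 to 18.5 and 34.1 to 39.7. The difference of the log2 ratio was 1.1, with an exact two-sided permutation p = 0.1, the smallest that 3 against 3 libraries allow. At day 0 the same ratio was 19.7 ± 0.854 in vehicle and 18.9 ± 0.518 in LLY-283 (exact permutation p = 0.2). The ratio does not depend on the scaling of the libraries.

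**Figure D2:**
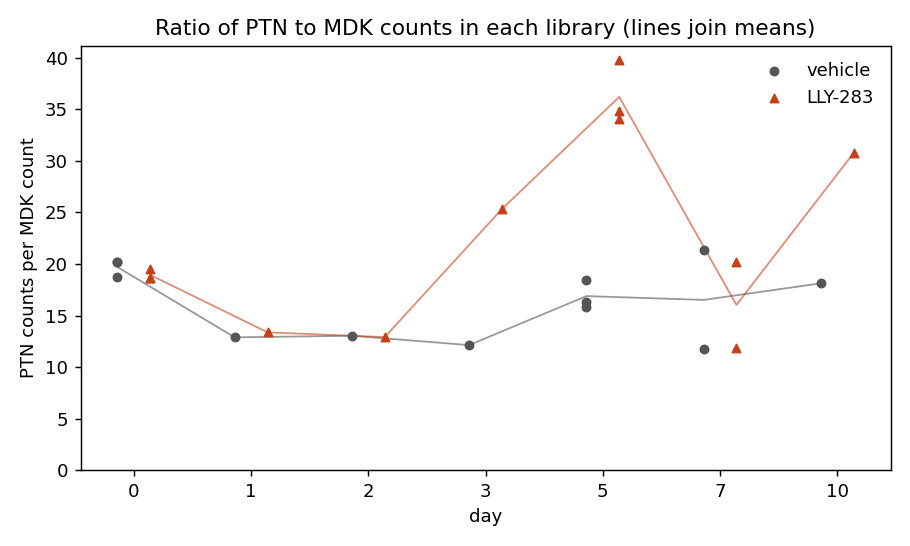
PTN counts per MDK count (vertical axis) in each of the 24 libraries against day (evenly spaced categories), with vehicle as grey circles, LLY-283 as orange triangles and lines through the means. The groups lie together on days 0 to 2, the LLY-283 libraries reach 34.1 to 39.7 at day 5 against 15.9 to 18.5 for vehicle, and the 2 libraries of each group at day 7 lie far apart.

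Among the receptors, PTPRZ1 had 3316, 3237 and 3418 CPM in vehicle and 4057, 3955 and 3872 CPM in LLY-283 at day 5, again without overlap. It was 1.21-fold higher (log2 0.28, SE 0.0359, edgeR adjusted p = 5.71e-07). LRP1 (chr12:57128483-57213361, plus strand) had 104, 104 and 89.4 CPM in vehicle and 123, 136 and 130 CPM in LLY-283. The vehicle library of repeat 3 was the lowest, and LRP1 was 1.33-fold higher in LLY-283 (log2 0.41, SE 0.0595, edgeR adjusted p = 0.000148). ALK, the tyrosine kinase receptor, had at most 2 counts in any library of day 5, so no difference was detectable at this depth.

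Of the 4 syndecans, SDC3 and SDC4 were called. SDC3 (chr1:30869466-30908758, minus strand), the syndecan named for its expression in neural tissue, had 123, 122 and 124 CPM in vehicle and 150, 154 and 155 CPM in LLY-283. Its groups were well separated, and it was 1.27-fold higher (log2 0.34, SE 0.0378, edgeR adjusted p = 4.11e-08). SDC4 (chr20:45325288-45348424, minus strand), a component of focal adhesions, had 15.7, 13.6 and 13.2 CPM in vehicle and 16.9, 18.0 and 18.6 CPM in LLY-283. It was 1.28-fold higher (log2 0.36, SE 0.0872, edgeR adjusted p = 0.00188), but this call rested on few counts, 178 to 372 a library. The adjusted p of SDC4 was 0.0148 with DESeq2, and between 0.0111 and 0.0184 without vehicle repeat 2, vehicle repeat 3, LLY-283 repeat 2 or LLY-283 repeat 3, in edgeR.

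SDC1 (chr2:20200797-20225433, minus strand), a syndecan best known from epithelia and plasma cells, had 35.6, 34.5 and 33.6 CPM in vehicle and 34.4, 36.3 and 33.5 CPM in LLY-283. The groups overlapped, with a log2 fold change of 0.032 (95% interval -0.087 to 0.15, edgeR adjusted p = 0.704). SDC2, on chromosome 8, had 5.35, 5.0 and 7.02 CPM in vehicle and 6.25, 5.53 and 5.95 CPM in LLY-283. It had only 76 to 119 counts a library, and its log2 fold change of 0.061 had a 95% interval of -0.24 to 0.36 (edgeR adjusted p = 0.779). A difference of SDC2 within that interval was not detectable at this depth.

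Markers of other cells were measured in the same libraries. The sum of COL1A1, COL1A2, COL3A1 and FN1, matrix genes of fibroblasts, was 161 CPM in vehicle day 5 repeat 3, 79.2 CPM in LLY-283 day 2 and 83.8 CPM in vehicle day 7 repeat 1, and 7.29 to 17.4 CPM in the other 21 libraries. Without vehicle day 5 repeat 3, MDK (log2 -0.6), PTN (0.46), PTPRZ1 (0.29), LRP1 (0.34) and SDC3 (0.34) were still called. COL1A1, COL1A2, COL3A1 and FN1 are only part of a fibroblast list of 12 genes. The sum of the other genes of that list was not calculated. The whole list summed to 335.6 to 336.2 CPM in the vehicle libraries of day 7, so it did not set repeat 1 apart there. The same whole list summed to 265 to 434 CPM in vehicle and 348 to 349 CPM in LLY-283 at day 5. The precursor list summed to 2005 to 2078 and 2091 to 2148 CPM, the astrocyte list to 410 to 431 and 344 to 384 CPM, and the mature oligodendrocyte list to 22.6 to 24.5 and 35.3 to 38.7 CPM, in vehicle and LLY-283. The neuron list summed to 111.6 to 117.6 and 117.9 to 119.7 CPM in the same order. The precursor, astrocyte, mature oligodendrocyte and neuron sums did not overlap between the groups, beside 46.3% of all single genes. Their part in the members' changes was not tested. AQP4, an astrocyte water channel, was at 0 in every library and MAG, a myelin protein, in 23 of 24.

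The libraries of day 0 compare the 2 treatment groups at 0 days of treatment. None of the 8 tested members was called, beside 0.0169% of 17780 genes, and 1012 genes had an unadjusted p under 0.05, while DESeq2 called 4 genes and none of these members. MDK had 47.1, 55.7 and 52.2 CPM in vehicle and 59.9, 55.8 and 53.7 CPM in LLY-283. PTN had 952 to 1054 CPM and 1043 to 1115 CPM. The groups of MDK and PTN overlapped. Those of PTPRZ1 (2655 to 2713 and 2718 to 2729 CPM) and SDC1 (49.5 to 50.1 and 54.1 to 55.9 CPM) did not, as for 11.9% of all genes, with log2 fold changes of 0.0074 and 0.12 (edgeR adjusted p = 0.978 and 0.789).

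**Figure D3:**
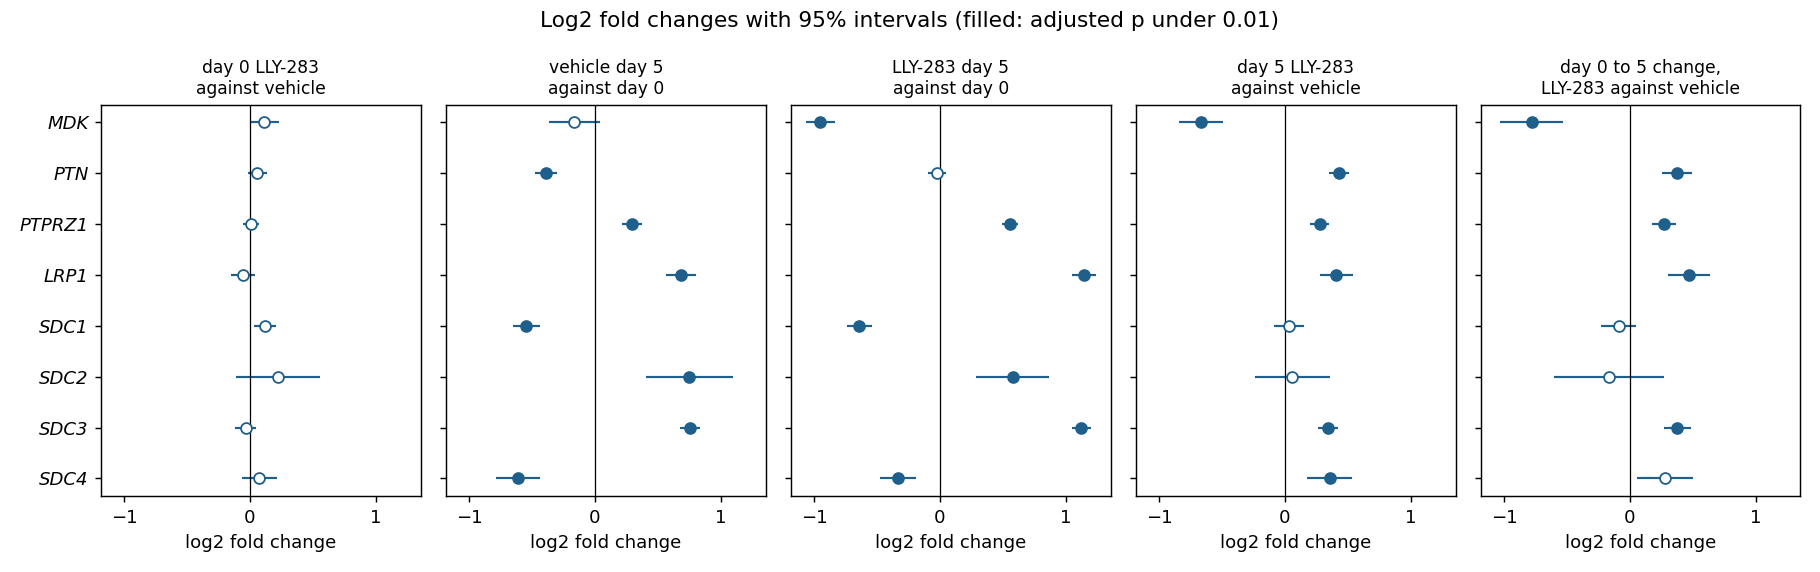
Log2 fold changes (horizontal axes) of the 8 tested members in 5 comparisons, with 95% intervals from the edgeR fit as bars and filled points where the adjusted p was under 0.01. MDK, PTN, PTPRZ1, LRP1 and SDC3 are filled in the right-hand panel, where the change from day 0 to day 5 is compared between LLY-283 and vehicle.

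Most members also changed with time in culture without the inhibitor. From day 0 to day 5 in vehicle, 7 of 8 were called, beside 38.9% of 17106 genes. SDC3 (log2 0.76, SE 0.0396), SDC2 (0.75, SE 0.168), LRP1 (0.69, SE 0.0555) and PTPRZ1 (0.29, SE 0.0385) rose, and SDC4 (-0.61, SE 0.0842), SDC1 (-0.54, SE 0.0522) and PTN (-0.39, SE 0.0411) fell. MDK did not pass, at -0.16 (SE 0.0899, edgeR adjusted p = 0.17). Vehicle libraries of day 5 thus had more PTPRZ1 and LRP1 and less PTN than those of day 0. Of all called genes 57.1% were higher, or 46.2% with library size alone as the scale, and each called member kept its direction on that scale.

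In LLY-283 over the same 5 days, 7 of 8 members were also called, beside 42.4% of 17341 genes. LRP1 (log2 1.15, SE 0.0455), SDC3 (1.13, SE 0.0374), SDC2 (0.58, SE 0.141) and PTPRZ1 (0.56, SE 0.0294) rose, and MDK (-0.95, SE 0.0557), SDC1 (-0.64, SE 0.0484) and SDC4 (-0.34, SE 0.0689) fell. SDC2 had an adjusted p of 0.0104 with DESeq2. PTN stayed near its day 0 level, at -0.022 (95% interval -0.091 to 0.048, edgeR adjusted p = 0.624). The call for MDK thus came in LLY-283 and that for PTN in vehicle.

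Tested directly, the change from day 0 to day 5 differed between LLY-283 and vehicle for 5 of the 8 members, beside 14.9% of 18369 genes. The difference was -0.78 on the log2 scale for MDK (SE 0.117, edgeR adjusted p = 0.000215) and 0.37 for PTN (SE 0.0572, adjusted p = 2.3e-05). It was 0.27 for PTPRZ1 (SE 0.0461), 0.47 for LRP1 (SE 0.08) and 0.38 for SDC3 (SE 0.0526), with edgeR adjusted p between 4.76e-06 and 0.000244. PTPRZ1, LRP1 and SDC3 therefore rose in both treatment groups and rose further in LLY-283. SDC4 fell in both, by 0.61 in vehicle and 0.34 in LLY-283 on the log2 scale, and the difference of 0.28 did not pass (edgeR adjusted p = 0.0592). SDC1 (-0.09, 95% interval -0.23 to 0.049) and SDC2 (-0.16, 95% interval -0.6 to 0.27) were not called either. This comparison shares its day 5 libraries with the test at day 5 and is not a separate experiment.

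Days 1, 2, 3 and 10 have 1 library a group, so their values are given without a test of each day. At day 1 both treatment groups lay outside the range of day 0 for every tested member except SDC2. MDK (68.4 CPM in vehicle and 61.6 CPM in LLY-283), LRP1 (81.3 and 74.1 CPM) and SDC3 lay above it. PTN (881 and 824 CPM), PTPRZ1 (2614 and 2618 CPM), SDC1 (47.1 and 43.8 CPM) and SDC4 lay below it. The share of all genes that did so was not counted. SDC3 had 121 CPM in vehicle and 116 CPM in LLY-283, above the 69.7 to 73.6 CPM of all 6 libraries of day 0, and SDC4 had 14.9 and 16.5 CPM, below the 19.8 to 23.9 CPM of day 0. MDK was 60.4 in vehicle and 60.9 CPM in LLY-283 at day 2, and PTN 788 and 787 CPM, so the treatment groups lay together.

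At day 3 each group had 1 library, and the share of all genes that lay as far apart as a member was not counted. SDC1 had 34.1 CPM in vehicle and 36.6 CPM in LLY-283, and SDC4 had 16.2 and 15.9 CPM. MDK had 56.8 CPM in vehicle and 36.6 CPM in LLY-283, PTN 689 and 927 CPM, PTPRZ1 2775 and 3770 CPM, and LRP1 71.4 and 99.2 CPM. SDC3 had 116 and 133 CPM and SDC2 4.9 and 6.77 CPM. The PTN count for each MDK count was 12.1 in vehicle and 25.3 in LLY-283 at day 3, after 12.9 and 13.4 at day 1. When days 1 to 3 were tested together with day as a block, none of the 8 members was called, beside 0% of 17240 genes. Of all genes, 2879 had an unadjusted p under 0.05 and DESeq2 called 12, none of them a member. With 1 library left out, 0 to 564 genes were called, 111 without vehicle day 2, 127 without LLY-283 day 2, 216 without vehicle day 3 and 564 without LLY-283 day 3. This test averages days at which the groups lay together with day 3.

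At day 10 MDK had 47.5 CPM in vehicle and 34.7 CPM in LLY-283, and PTN 861 and 1069 CPM, the same order of groups as at day 5. PTPRZ1 (4043 and 4193 CPM) and LRP1 (151 and 147 CPM) had their highest vehicle values of the series at this day and lay close together. SDC3 had 132 and 148 CPM.

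At day 7 the repeats went against each other for MDK, PTN, PTPRZ1, LRP1 and SDC4. For SDC1, SDC2 and SDC3 both repeats had the same direction. In repeat 1 MDK had 60.7 CPM in vehicle and 38.9 CPM in LLY-283, and in repeat 2 it had 44.2 and 60.6 CPM. PTN had 711 and 786 CPM in repeat 1 and 942 and 719 CPM in repeat 2. LRP1 had 83.5 and 121 CPM in repeat 1 and 86.7 and 82.2 CPM in repeat 2. For MDK and PTN the order of the groups was thus that of day 5 in repeat 1 and the opposite in repeat 2. SDC4, higher in LLY-283 at day 5, had 15.0 CPM in vehicle and 12.1 CPM in LLY-283 in repeat 1, and 15.0 and 16.9 CPM in repeat 2. PTPRZ1 lay between 2976 and 3201 CPM and SDC3 between 119 and 128 CPM in the 4 libraries, below all LLY-283 libraries of day 5. The PTPRZ1 values were also below all vehicle libraries of day 5 (3237 to 3418 CPM), and those of SDC3 spanned them (122 to 124 CPM). None of the 8 members was called at day 7, beside 0% of 16826 genes, with 236 genes at an unadjusted p under 0.05 and 3 called by DESeq2, none of them a member.

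The interaction of treatment with day over the 22 libraries of days 0 to 7 called none of the members in edgeR, beside 0.0289% of 20756 genes. The smallest adjusted p values were 0.0616 for SDC3, 0.0895 for PTPRZ1 and 0.121 for PTN, and MDK had 0.304. Of all genes, 3166 had an unadjusted p under 0.05. DESeq2's likelihood ratio test called 249 genes, among them PTPRZ1 (adjusted p = 9.18e-11), PTN (0.000285) and SDC3 (0.000339). The edgeR fits that follow, without libraries of day 7, also called more of all genes than the 0.0289% above. Their members called are thus no result about the members alone, and the closing part gives the counts over all genes. The libraries of day 7 repeat 2 were set apart by their direction over genes called at day 5. The time course fit also holds the libraries of day 5, so leaving repeat 2 out is not independent of the day 5 calls. Without the 2 libraries labelled day 7 repeat 2, edgeR called 5 members, MDK (adjusted p = 0.00106), PTN (0.000134), PTPRZ1 (0.000476), LRP1 (0.000121) and SDC3 (0.000177). Leaving out vehicle day 7 repeat 1, LLY-283 day 7 repeat 1 or LLY-283 day 7 repeat 2 alone also gave called members. Each of these fits called more of all genes than the main fit as well. No member's call changed without vehicle day 7 repeat 2.

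The wider pathway was described with 7 lists of 96 genes in all, of which 81 were tested at day 5. Of these, 23 were higher and 8 lower in LLY-283, which makes 38.3% called beside 26.1% of all genes. The lists were chosen with earlier results of these data known, so these shares are descriptive only. Other binding partners of midkine and pleiotrophin had 3 higher and 1 lower of 12 tested. The integrin chain ITGA6 had 111 ± 0.838 CPM in vehicle and 174 ± 8.17 CPM in LLY-283 at day 5 (SD, n = 3, log2 0.67), both below its day 0 levels of 230 ± 6.08 and 244 ± 4.64 CPM. In the same order, the brain proteoglycan CSPG5 had 3.92 ± 0.577 and 5.97 ± 0.634 CPM (0.63), and nucleolin (NCL) 1621 ± 52.9 and 1344 ± 61.9 CPM (-0.25). All 4 tested extracellular partners of PTPRZ1 were called, 3 higher and 1 lower. Without vehicle repeat 2 only 1 was higher, and in the shared fit 1 was higher and 0 were lower. The lower call was lost without vehicle repeat 2 or any 1 of the LLY-283 repeats, with DESeq2 and with library size alone. Tenascin-C (TNC), a matrix glycoprotein that binds PTPRZ1, had 212 ± 7.77 CPM in vehicle and 335 ± 9.31 CPM in LLY-283 (log2 0.68), beside 308 ± 2.35 and 312 ± 2.63 CPM at day 0. Among adhesion molecules, NRCAM had a log2 fold change of 0.17 and L1CAM one of -0.19. CSPG5 was not called with DESeq2, and L1CAM neither with DESeq2 nor with library size alone.

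The next 3 lists are read beside the same 26.1% of all genes. Of 9 tested substrates and scaffolds of PTPRZ1, 2 were called, the synaptic scaffold DLG4 (log2 0.32) and the focal adhesion protein PXN (0.21), both higher. Of 7 tested ligands, kin and adaptors of ALK, the phospholipase PLCG1 was higher, at 334 ± 2.68 CPM in vehicle and 473 ± 23 CPM in LLY-283 (log2 0.53), and the adaptor IRS1 (-0.44) and the phosphatase PTPN11 (-0.18) were lower. Of 12 tested partners of syndecans and LRP1, the exchange factor TIAM1 (0.31) and the adaptor GIPC1 (0.15) were higher and none was lower. In the shared fit these 3 lists had 1, 1 and 0 genes higher, and 0, 1 and 0 lower. The median log2 fold changes of these 3 lists were -0.035, -0.13 and 0.045, beside 0.021 over all genes.

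The enzymes that build or trim the sugar chains that these ligands bind had 7 higher and 3 lower of 30 tested, beside the same 26.1% of all genes, with a median of 0.06 on the log2 scale. With 1 library left out, 4 to 6 were higher and 1 to 4 lower: 4 higher without vehicle repeat 2 or vehicle repeat 3, and 1 lower without vehicle repeat 3 or LLY-283 repeat 3. In the shared fit 2 were higher and 1 lower. CSGALNACT1, which starts chondroitin sulphate chains, had 3.37 ± 0.562 CPM in vehicle and 8.56 ± 0.346 CPM in LLY-283 (log2 1.37), the largest difference among the 81 tested genes, beside 7.28 ± 0.19 and 7.2 ± 1.33 CPM at day 0. SULF2, which removes sulphate groups from heparan sulphate outside the cell, had 20.8 ± 1.3 and 35.0 ± 0.117 CPM (0.78), beside 30.2 ± 0.452 and 29.9 ± 1.48 CPM at day 0. The sulphotransferase CHST7 (log2 -0.4) and the chondroitin polymerising factor CHPF (-0.16) were lower. Of 7 other proteoglycans tested, 5 were higher and 1 lower, with a median of 0.22, and 2 were higher and 1 lower in the shared fit. Neurocan (NCAN) had 405 ± 9.87 CPM in vehicle and 583 ± 28.3 CPM in LLY-283 (log2 0.55), and glypican-1 (GPC1) 210 ± 5.73 and 284 ± 6.53 CPM (0.46). TGFBR3 was lower, at 26.8 ± 1.43 and 20.8 ± 0.27 CPM (-0.34). NCAN had 161 ± 6.1 CPM in vehicle at day 0, and 405 ± 9.87 CPM in vehicle at day 5, higher at the later time without LLY-283 as well. Of the 20 listed genes named here, CSPG5, NRCAM, L1CAM, PXN, GIPC1 and CHPF had an adjusted p over 0.01 in at least 1 of the fits that left out a library of day 5. In the shared fit these 6 genes and NCAN (adjusted p = 0.0536), IRS1 (0.0245) and TIAM1 (0.0124) were not called in edgeR.

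**Figure D4:**
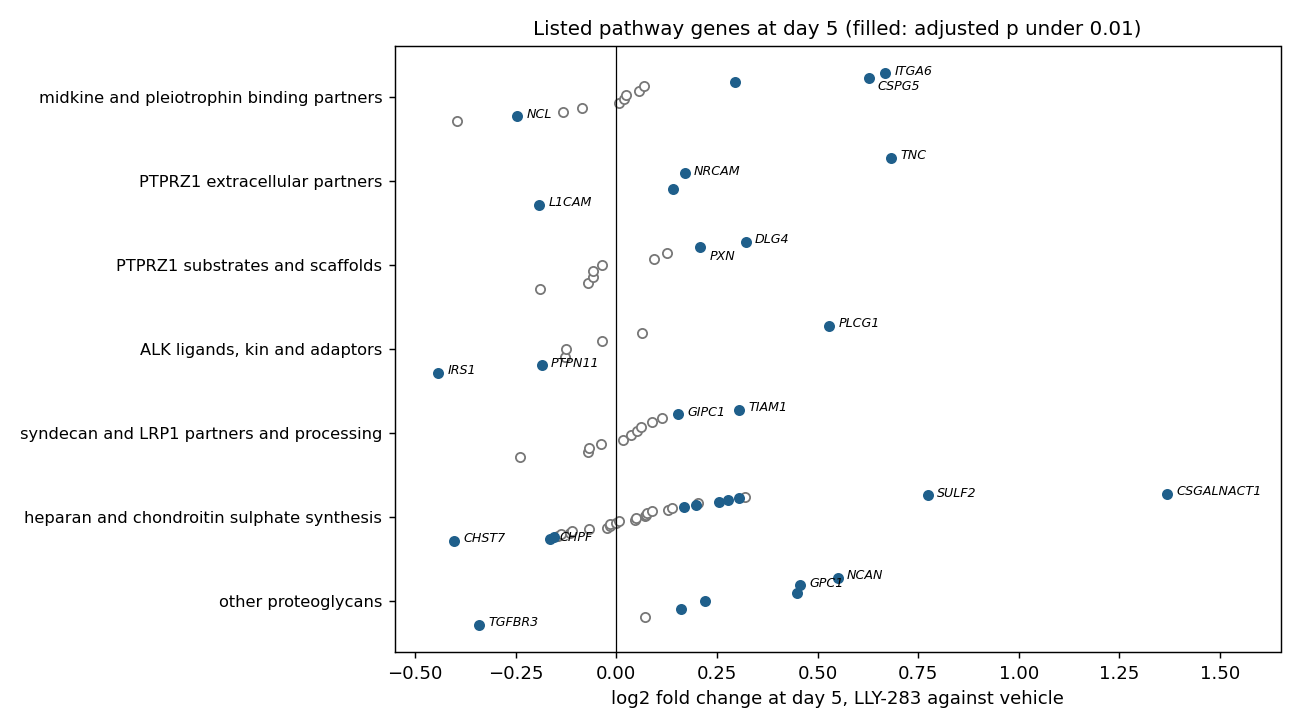
Log2 fold change at day 5, LLY-283 against vehicle (horizontal axis), of the 81 tested genes of 7 lists (rows). Each point is a gene, filled where the edgeR adjusted p was under 0.01, and the genes given in the text are named. Of the filled points 23 lie to the right of 0 and 8 to the left, with CSGALNACT1 at 1.37 the farthest.

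The genes whose log2 CPM followed each main member most closely over the 24 libraries were ranked by Pearson r among 17503 genes. The libraries share days and treatments, so r describes a likeness of pattern only. For MDK they were OXCT1, SLC2A4RG and RRM2, each with r = 0.94. For PTN they were RNF175 (0.93), DRAXIN (0.92) and EXTL3 (0.92), and for PTPRZ1 LYST (0.96), ALPK2 (0.96) and AGAP2 (0.95).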

How the data were processed

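RNA of HSJD-DIPG-007 cells was measured in 24 libraries. Per the labels and methods, the authors prepared polyadenylated RNA with a strand-keeping kit, sequenced paired ends and assigned reads with kallisto to hg38, and they deposited estimated counts per gene in whole numbers, not normalised. Totals ranged from 13835205 to 23190369 with a median of 18688160.5, and the number of counts behind a gene sets its precision. The versions used upstream are not given in the sources used here.

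From these counts, tests were run in edgeR 4.0.16 (R 4.3.3) with TMM scaling, filterByExpr within groups, the robust quasi-likelihood test and Benjamini-Hochberg adjustment over all tested genes. A call needed an adjusted p under 0.01. Fits for days 0, 5 and 7 held the libraries of that day alone, days 1 to 3 were fitted together with day as a block, and the time course test took the treatment-by-day term of a fit to 22 libraries. SE is the log2 fold change divided by the root of its F statistic, and 95% intervals use the t distribution of the fit. DESeq2 1.42.0 was an alternative, beside other scalings, filters and thresholds, a block for the repeat number, a shared fit of 22 libraries, and leaving out each library. Leaving out the libraries of day 2 was added after the values had been seen. Each test was checked on simulated data. Levels per kilobase used exon lengths of GENCODE v44. No promoter window was taken for SDC2, and the promoter set used held none for MDK.

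Libraries of a group were compared over genes where both summed to 20 counts or more. Chi-square per degree of freedom was 1.65 to 3.79 at days 0 and 5, and 11.2 and 13.4 at day 7. No library was therefore taken for a second sequencing of another. These values cannot show that the cultures were independent, and the libraries are treated as technical repeats. Members and lists were chosen with earlier results of these data known, and MDK is named in the paper. Named genes were all 9 members, in each list up to 2 largest rises and 2 largest falls among those called at day 5, and for MDK, PTN and PTPRZ1 the 3 genes of highest Pearson r of log2(CPM + 0.5).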

Additional observations from a re-analysis of the deposited data

Results flagged for a closer look

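The change from day 0 to day 5 differed between the treatment groups for 5 members, by a test of the difference itself (edgeR, adjusted p under 0.01). Of all 18369 genes tested, 14.9% were called. On the log2 scale and as LLY-283 minus vehicle, the difference was -0.78 for MDK, 0.37 for PTN, 0.27 for PTPRZ1, 0.47 for LRP1 and 0.38 for SDC3. The call held for each of these 5 genes in all 19 alternatives run for this comparison. These alternatives are not independent of each other. They include a looser threshold on the same fit, which cannot end a call, and refits with a library left out. The shared fit, in which MDK and LRP1 were not called at day 5, was not run for this comparison. Each library of day 5 showed the direction: MDK was lower, and the other 4 genes were higher, in 3 of 3 LLY-283 libraries than in any vehicle library of that day. The groups of day 5 did not overlap for 46.3% of all genes either. These libraries are part of the test itself, so their order is not separate evidence.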

How the results depend on the processing

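The 8 comparisons were recomputed with DESeq2, with 2 other scalings (DESeq2 size factors, library size alone), with 2 other filters (none, or 10 counts as a minimum in every library), at an adjusted p under 0.05, with a block for the repeat number and with each library left out. By the median over 24 libraries, the order of levels per kilobase was that of the main lengths for 9 of 9 members with the longest transcript. At day 5 LRP1 stood above SDC4 with that length, at 8.69 and 6.82 CPM per kilobase in LLY-283 and 6.65 and 5.41 in vehicle. At day 5 the count of called members was 3 in the shared fit of 22 libraries against 6, with adjusted p of 0.0129 for MDK, 0.0206 for LRP1 and 0.0311 for SDC4, and 2042 genes called against 4304. For days 1 to 3 it was 1 with no filter (PTPRZ1, adjusted p = 0.00912) against 0, and over all genes 517 with no filter, 12 with DESeq2 and 0 to 564 with 1 library left out against 0. For the time course it was 3 with DESeq2, 1 with library size alone, 4 with no filter and 5 without the libraries labelled day 7 repeat 2 against 0, and 0 to 3 over the fits that left out 1 library. Genes called there were 6, against 249 with DESeq2, 1217 with no filter and 2002 without day 7 repeat 2, and 0 to 894 with 1 library left out. The cause was not tested.

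Directions turned only for members that were not called. PTPRZ1 at day 0 was -0.0029 with library size alone, and SDC1 at days 1 to 3 was 0.015 without the libraries of day 2. With 1 library left out, the log2 fold changes ranged at day 5 from -0.0045 to 0.051 for SDC1 and -0.043 to 0.21 for SDC2, and from -0.050 to 0.011 for PTN between days 0 and 5 of LLY-283. At days 1 to 3 they ranged from -0.042 to 0.22 for PTN, -0.072 to 0.23 for LRP1, -0.13 to 0.011 for SDC1, -0.011 to 0.28 for SDC2, -0.028 to 0.098 for SDC3 and -0.053 to 0.079 for SDC4. At day 7 they ranged from -0.42 to 0.21 for MDK, -0.31 to 0.084 for PTN, -0.050 to 0.52 for LRP1, -0.43 to 0.11 for SDC2 and -0.31 to 0.17 for SDC4.

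The repeat numbers did not pair the libraries, since the deviations of libraries with the same number correlated between -0.08 and 0.08 and 2 of 12 correlated best with their own number. With the number as a replicate block the called members were 6 at day 5 as without it, and 4401 genes were called against 4304, 6 against 3 at day 0 and 1 against 6 in the time course. No member's call changed under the block, which was not run for days 1 to 3, where each group and day has 1 library. Genes called at day 0 were 56 with no filter against 3, and at day 7 they were 27 against 0.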
